A study of Mus musculus with 4 samples.

Results

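The 40 protein-coding genes described here carry the symbols of constitutive proteasome subunits, of the core, the cap and the activators, and include 3 assembly chaperones of the cap and 2 subunits of other tissues. They were chosen by symbol: GENCODE names of Psma, Psmb, Psmc, Psmd or Psme followed by a number, without the immunoproteasome subunits Psmb8, Psmb9 and Psmb10. All 40 were among the 53647 genes of the count tables, and they lie on 16 chromosomes. By role they are 8 core alpha, 8 core beta, 6 cap ATPase and 14 cap non-ATPase genes and 4 activators. Wild-type primary myoblasts from the limb muscles of mouse pups aged 2 to 3 days were differentiated in horse serum into myotubes, and bulk RNA was sequenced from 2 Control libraries and from 2 libraries of cultures that received EDA-A2, the ligand of the receptor EDA2R, at 250 ng/mL for 24 h. The labels do not say what the Control cultures received, nor whether the replicates came from separate cultures or animals, so p-values measure only the spread between these libraries. The comparison asks whether EDA-A2, which the study examined as a driver of muscle wasting, changed proteasome transcripts.

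The proteasome degrades proteins that carry ubiquitin. Its core is a barrel of alpha rings, which form the gate, and beta rings, which hold the proteolytic sites. A cap recognises and unfolds the substrate: ATPases in its base pull on the protein, and non-ATPase subunits of base and lid bind and remove ubiquitin. Activators of the PA28 and PA200 types open the same gate without ATP. In wasting muscle the ubiquitin-proteasome system is a main route of myofibrillar protein loss. NRF1, the product of Nfe2l1, is a transcription factor that drives proteasome subunit genes together when proteasome activity falls short.

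Between 29444155 and 29746863 read pairs per library were counted on genes. Normalized counts are these counts after TMM adjustment, brought to the average library size. Myotube markers were abundant, and all 6 had a log2 fold change below 0 after EDA-A2. Called lower were 2 of the 6, Myh3 and Acta1, against 2.13% of all genes tested. The summed level of Myog, Ckm, Myh3, Acta1, Ttn and Mymk was 18800 and 17700 CPM (counts scaled to a common library total) in Control and 13100 and 13400 CPM in EDA-A2. Myoblast markers (142 to 167 CPM), dividing cell markers (592 to 701 CPM) and fibroblast markers (173 to 324 CPM, with Lum at 0) were present in every library. Most of the fibroblast sum was Col1a1, with 9004 and 5046 counts in Control and 4769 and 5904 in EDA-A2. Its log2 fold change was -0.46, those of Dcn and Pdgfra were 0.48 and 0.16, and 0 were called. Macrophage (1.98 and 2.28 CPM in Control, 2.98 and 2.42 CPM in EDA-A2), endothelial (0.905 to 1.09 CPM) and T cell markers (0.0331 to 0.409 CPM, with Cd8a at 0) were scarce. The part of these differences in the results below was not tested. In bulk RNA, fewer cells of a type and less RNA per cell cannot be told apart.

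Of the 40 genes, 38 passed the filter on low counts. The other members, Psma8, an alpha subunit of the testis, and Psmb11, a beta subunit of the thymus, had 0 counts in all 4 libraries, which allows up to 0.102 CPM per library for counting error. The other 38 were well counted, with a median of 3602 normalized counts against 579 over all genes tested. Together the 40 genes took 0.471% and 0.474% of the counts in Control and 0.493% and 0.499% in EDA-A2. These are shares of library totals. After TMM adjustment their summed level was 4815 CPM in Control and 4865 CPM in EDA-A2, a ratio of 1.01. Per kilobase of coding sequence, the level of the core genes was close to even. The 7 alpha genes lay between 136 CPM per kilobase for Psma1 and 199 for Psma2, a 1.46-fold range with a coefficient of variation of 13.2%. The 7 beta genes lay between 95.01 for Psmb5 and 209 for Psmb1, a 2.20-fold range. Differences between neighbours in these orders were not tested, and the order depends on the length used. Per kilobase of the canonical transcript, which includes untranslated sequence, the alpha genes ranged 3.78-fold, from Psma3 at 34.2 to Psma6 at 129 CPM per kilobase, and the beta genes 7.12-fold, from Psmb2 at 20.2 to Psmb3 at 144.

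**Figure D1:**
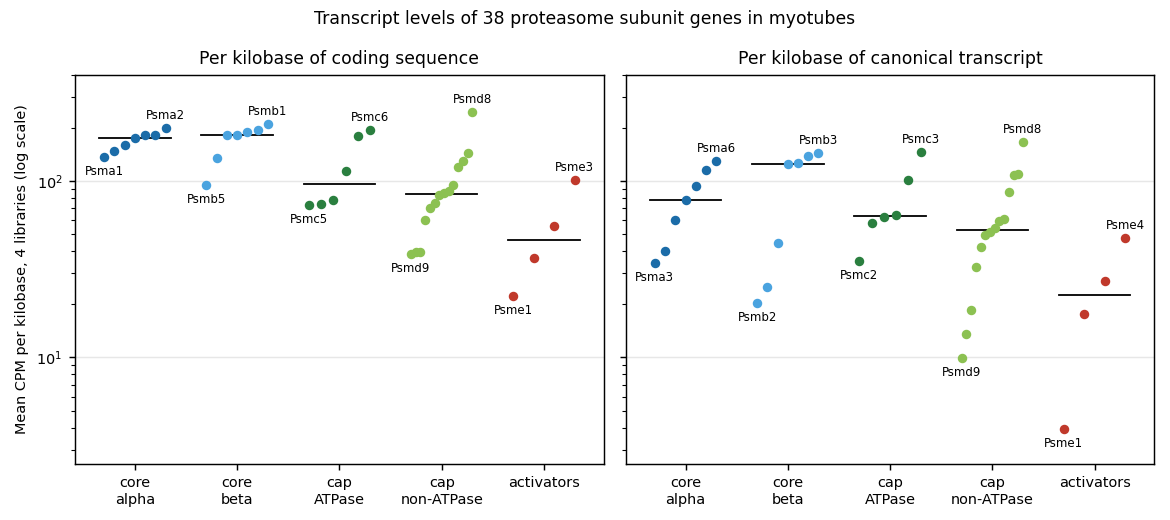
Mean level of each of the 38 genes over the 4 libraries in CPM per kilobase (log axis), by class, per coding sequence (left) and per canonical transcript (right). Points are genes, black lines are class medians, and the highest and lowest gene of each class are named. The alpha genes span 1.46-fold on the left and 3.78-fold on the right, and Psme1 is lowest on both.

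With its 3 assembly chaperones counted in, the cap (20 genes) had a wider range than the core (14 genes tested). It was 6.34-fold against 2.20-fold per coding length, and 16.9-fold against 7.12-fold per transcript length. Without these chaperones the cap's range per transcript length was that of the lid genes, 5.12-fold, narrower than the core's. Per transcript length the ATPases alone ranged 4.13-fold, less than the beta genes (7.12-fold) and more than the alpha genes (3.78-fold). Among the ATPases, coding-length levels ran from 73.4 CPM per kilobase for Psmc5 to 195 for Psmc6, with Psmc4 (74.0) and Psmc2 (78.2) beside Psmc5 and Psmc3 (179) below Psmc6. The non-ATPase genes ran from 38.5 for Psmd9 to 244 for Psmd8, a lid subunit. The lowest 3 on this scale, Psmd9 (38.5), Psmd10 (39.6) and Psmd5 (39.7), encode chaperones of base assembly that are not part of the finished particle. They were also the lowest 3 of their class per transcript length, at 9.87, 18.5 and 13.6 CPM per kilobase. Activators had a lower median, 46.1 CPM per coding kilobase, than the alpha (176), beta (182), ATPase (96.2) and non-ATPase genes (84.4). The nuclear activator Psme3 was at 101, Psme4, which encodes PA200, at 55.6, and the PA28 pair Psme2 and Psme1 at 36.7 and 22.3.

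After EDA-A2, fitted levels of the core and cap transcripts were between 7.57% lower (Psmc3) and 9.39% higher (Psmd10, an assembly chaperone) than in Control, and the called member was the activator Psme2. Across the fit of 15173 genes by edgeR's quasi-likelihood test, 4.57% were called differentially expressed (DEGs) at an adjusted p under 0.05, 2.45% higher and 2.13% lower. Of the 38 members, 1 was called higher, Psme2, and 0 were called lower. At an unadjusted p under 0.05 the members again numbered 1 higher and 0 lower, by edgeR and by DESeq2, where 15.6% of all genes passed in edgeR. The median log2 fold change was 0.04 over the members and -0.002 over all genes tested. Above 0 were 24 members and below 0 were 14, and 49.5% of all genes were above 0. Changes smaller than 0.15 on the log2 scale were found for 36 of the 38 members and for 60.6% of all genes. The members, being more deeply counted, had a median standard error of 0.07 against 0.10 over all genes.

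Groups that did not overlap were seen for 12 members higher and 4 lower in EDA-A2, while 22.8% of all genes tested were higher and 22.2% lower in that way. In the other 22 members the libraries of the conditions overlapped. For the 34 core and cap genes, fitted log2 fold changes lay between -0.11 (Psmc3) and 0.13 (Psmd10), and the smallest adjusted p was 0.437. The outermost bounds of their 95% intervals were 0.837-fold and 1.26-fold, so changes beyond these sizes lay outside every interval. Summed over core and cap, the level was 4402 ± 42.6 CPM in Control and 4422 ± 74.5 CPM in EDA-A2 (SD, n = 2), a ratio of 1.004.

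**Figure D2:**
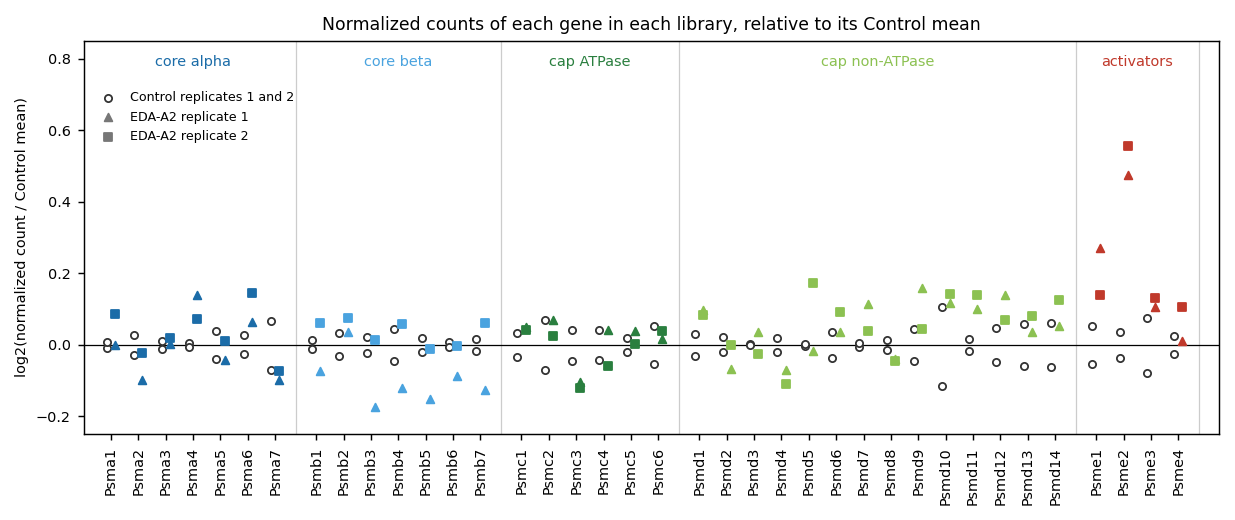
Normalized count of each of the 38 genes in each library, as log2 of its ratio to the gene's Control mean, by class. Open circles are the Control replicates, triangles EDA-A2 replicate 1 and squares EDA-A2 replicate 2. Most points lie within 0.2 of 0, Psme2 lies near 0.5 in both EDA-A2 libraries, and the triangles lie below the squares for all 7 beta genes.

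Among the core alpha genes, whose products form the gate, 4 were above and 3 below 0, their median log2 fold change was 0.01, and 0 were called. Psma4, which encodes an alpha subunit of the gate, had normalized counts of 3940 and 3910 in Control and 4326 and 4130 in EDA-A2. Both EDA-A2 libraries were above both Controls, by 0.11 on the log2 scale (standard error 0.07, adjusted p = 0.503 by edgeR). Psma6 stood at 3915 and 3772 in Control and 4017 and 4252 in EDA-A2, also without overlap, and its log2 fold change was 0.11 (adjusted p = 0.526 by edgeR). Psma7 had 3487 and 3173 in Control and 3110 and 3166 in EDA-A2. For Psma7 the groups did not overlap in the other direction and the log2 fold change was -0.09 (adjusted p = 0.653 by edgeR).

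In the catalytic beta genes the conditions overlapped. Psmb5, which encodes the chymotrypsin-like subunit, had 2321 and 2258 normalized counts in Control and 2059 and 2272 in EDA-A2. Psmb6, of the caspase-like subunit, had 3920 and 3884 in Control and 3677 and 3894 in EDA-A2. Psmb7, of the trypsin-like subunit, had 4879 and 4771 in Control and 4423 and 5034 in EDA-A2. EDA-A2 replicate 1 was the lowest library in all 3, and EDA-A2 replicate 2 lay inside or above the Control range. Their log2 fold changes were -0.08, -0.04 and -0.03, with adjusted p of 0.697, 0.845 and 0.913 by edgeR, and their 95% intervals ran from -0.24 to 0.08, from -0.19 to 0.10 and from -0.19 to 0.13. Of the exon bases of Psmb7, 46.8% lie opposite Nek6, and the strand setting of the counting was not given in the sources used here.

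The non-catalytic beta genes Psmb2 and Psmb3 had log2 fold changes of 0.06 and -0.08. The median of the 7 tested beta genes was -0.03, and EDA-A2 replicate 1 was below EDA-A2 replicate 2 in 7 of 7. Summed, the beta genes gave 869 and 867 CPM in Control and 809 and 892 CPM in EDA-A2. The median therefore rested on which EDA-A2 library was used: it was 0.06 without EDA-A2 replicate 1 and -0.12 without EDA-A2 replicate 2. The same library order was seen in 6 of 7 alpha genes, in 1 of 6 ATPases and in 7 of 14 non-ATPase genes.

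The 6 ATPase genes, whose products form the unfolding ring of the cap, had a median log2 fold change of 0.02, 4 above and 2 below 0, and 0 were called. Psmc3, of an ATPase whose tail opens the gate, had 7067 and 7503 normalized counts in Control and 6772 and 6696 in EDA-A2. Both EDA-A2 values were under both Controls, at a log2 fold change of -0.11 with a standard error of 0.07 (adjusted p = 0.473 by edgeR). Psmc1 had 4296 and 4493 in Control and 4547 and 4519 in EDA-A2, above Control without overlap, at a log2 fold change of 0.04. Psmc2 (0.05), Psmc6 (0.03), Psmc5 (0.02) and Psmc4 (-0.01) overlapped between conditions on the log2 scale.

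The 14 non-ATPase genes had a median log2 fold change of 0.08, with 11 above 0, 3 below and 0 called. Of the 8 lid genes 7 were above 0 (median 0.07), of the 3 base genes 1 (median -0.03), and of the 3 assembly chaperones 3 (median 0.10). Psmd11, a lid subunit that bridges cap and core, had 3383 and 3459 normalized counts in Control and 3664 and 3770 in EDA-A2. The groups did not overlap, and the fitted difference was 0.12 on the log2 scale, with a standard error of 0.07 (adjusted p = 0.437 by edgeR). The lid gene Psmd12 had 3035 and 2839 in Control and 3232 and 3079 in EDA-A2, a log2 fold change of 0.10 (adjusted p = 0.553 by edgeR). Psmd10, which encodes the chaperone gankyrin, had 716 and 834 in Control and 840 and 856 in EDA-A2, a log2 fold change of 0.13 (adjusted p = 0.589 by edgeR). For Psmd8, the most abundant per length, the values were 7682 and 7828 in Control and 7551 and 7518 in EDA-A2, and for Psmd9 the log2 fold change was 0.10.

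The medians of all members, of the cap non-ATPase genes and of the activators were above 0 under every scaling tried. That of the core beta genes turned to 0.025 with library totals, and those of the core alpha and cap ATPase genes turned to -0.031 and -0.0083 with offsets for length and GC content. With library totals in place of TMM factors, 32 of the 38 members were above 0 and 8 passed an unadjusted p under 0.05, all higher, while the median of all genes moved to 0.05 and the genes called over the table went from 371 higher and 323 lower to 485 higher and 194 lower. With offsets for length and GC content, 20 of the 38 were above 0. In both settings 1 member was called, again Psme2.

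Psme1 and Psme2 encode the alpha and beta subunits of PA28, the activator that is induced by interferon gamma and that shapes peptides for antigen presentation. The genes are neighbours on chromosome 14 of GRCm39, Psme1 (ENSMUSG00000022216, 55815190 to 55822034, forward strand) and Psme2 (ENSMUSG00000079197, 55824895 to 55829173, reverse strand), with 2860 bases between them. Psme2 had 624 and 657 normalized counts in Control and 890 and 941 in EDA-A2. Both treated libraries lay above both Controls by more than the spread within either group. It rose from 641 ± 23.4 to 916 ± 36.4 (SD, n = 2), a log2 fold change of 0.51 (standard error 0.09, 95% interval 0.33 to 0.70, adjusted p = 0.0028 by edgeR with Benjamini-Hochberg adjustment), which is 42.9% more. The value lay between 0.47 and 0.57 in all alternatives, and the call was lost with no filter on low counts (adjusted p = 0.0903) and without Control replicate 1 (0.288) or Control replicate 2 (0.191), where edgeR called 0 genes of the whole table (2179 and 2448 passed an unadjusted p under 0.05).

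Psme1 had 442 and 476 normalized counts in Control and 554 and 505 in EDA-A2. These groups did not overlap either, but the log2 fold change of 0.21 (standard error 0.10, 95% interval -0.02 to 0.43) did not pass the test (adjusted p = 0.373 by edgeR). The count of Psme2 over that of Psme1 was 1.41 and 1.38 in Control and 1.61 and 1.86 in EDA-A2. By the exact permutation test, two-sided, this ratio gave p = 0.333, the smallest that these 4 libraries allow. Psme3 had 2311 and 2079 in Control and 2364 and 2404 in EDA-A2, a log2 fold change of 0.12 (adjusted p = 0.505 by edgeR). Psme4 had 8759 and 9065 in Control and 8986 and 9583 in EDA-A2, with overlap, and a log2 fold change of 0.06 (adjusted p = 0.769 by edgeR).

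Promoter windows of 250 bases before the start, from RefSeq on GRCm38.p6, were found for 33 of the 40 members. Those of the PA28 pair are shown because Psme2 was the called member, and those of Psmb5 and Psmb6 because they are catalytic genes whose windows hold the antioxidant response element that NRF1 can bind. Capitals mark matches on either strand to CCAAT, TGACNNNGC (antioxidant response element), GAAA, any pair of bases and GAAA (interferon-stimulated response element), TTCNNNGAA (GAS element) or the NFkB motif. Each runs 5' to 3' along the gene. Psme2 lies at chr14:55591102-55591351 (reverse strand, the upstream of 2 starts), Psme1 at chr14:55578244-55578493 (forward), Psmb5 at chr14:54617996-54618245 (reverse) and Psmb6 at chr11:70525107-70525356 (forward).
Psme2: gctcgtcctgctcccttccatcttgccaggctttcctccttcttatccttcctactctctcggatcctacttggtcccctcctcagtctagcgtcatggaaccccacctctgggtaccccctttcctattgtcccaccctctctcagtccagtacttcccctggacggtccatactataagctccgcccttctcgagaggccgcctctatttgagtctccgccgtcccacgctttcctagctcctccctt
Psme1: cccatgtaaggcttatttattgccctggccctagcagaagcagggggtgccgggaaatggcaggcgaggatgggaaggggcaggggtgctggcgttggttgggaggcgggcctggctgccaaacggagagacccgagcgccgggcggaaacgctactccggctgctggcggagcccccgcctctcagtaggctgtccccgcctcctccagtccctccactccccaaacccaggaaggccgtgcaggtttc
Psmb5: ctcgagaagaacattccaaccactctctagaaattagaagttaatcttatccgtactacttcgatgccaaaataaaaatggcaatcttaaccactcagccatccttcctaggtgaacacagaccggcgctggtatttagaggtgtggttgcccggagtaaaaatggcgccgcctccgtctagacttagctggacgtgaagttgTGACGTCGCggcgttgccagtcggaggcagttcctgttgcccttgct
Psmb6: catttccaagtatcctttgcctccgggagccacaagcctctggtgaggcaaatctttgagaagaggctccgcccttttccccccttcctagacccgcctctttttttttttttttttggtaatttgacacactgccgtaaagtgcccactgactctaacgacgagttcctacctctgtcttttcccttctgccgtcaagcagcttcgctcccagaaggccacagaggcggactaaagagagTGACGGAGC

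In the windows of Psme2 and Psme1 none of the 5 motifs was matched. The antioxidant response element begins 47 bases before the start of Psmb5 and 9 bases before that of Psmb6. It was found in 5 of the 33 members (15.2%), the others being Psmc6, Psmd9 and Psmd12, and in 11.5% of all genes with such a window. CCAAT was found in 13 of 33 members (39.4%) and in 37.5% of all genes, and the interferon-stimulated response element in 3 (9.09%), Psmb3, Psmd4 and Psmd9, and in 3.46% of all genes. The GAS element was found in 0 members and 8.13% of all genes, and the NFkB motif in 1 member, Psmd12 (3.03%), and in 4.46% of all genes. The motif as written can overlap with others, and a match is a run of letters in this window only. The 5 members with an antioxidant response element had log2 fold changes of -0.08 (Psmb5), -0.04 (Psmb6), 0.03 (Psmc6), 0.10 (Psmd9) and 0.10 (Psmd12).

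Reads of neighbours and copies could enter these values, and reads that fit 2 places could be missing from them. Of the exon bases of Psme2, 30.8% (731 bases) lie opposite Rnf31, which had 472 and 439 counts in Control and 466 and 483 in EDA-A2. For Psme1, 39.6% lie opposite Emc9, with 65 and 77 counts in Control and 52 and 57 in EDA-A2. Psme2b, whose transcript matches the Psme2 coding sequence at 99.3% identity over 717 bases, had 9 and 10 counts in Control and 13 and 15 in EDA-A2. Of the 40 members 17 had a transcript elsewhere with a match of at least 100 bases at 90% identity, mostly processed pseudogenes, and the counts on those copies were at most 2.42% of the member's own (for Psmd11). Reads without a unique place (4.56% to 4.76%) and ambiguous reads (0.946% to 0.986%) were in HTSeq's summary lines, which were left out. How many of them came from members was not tested. Sharing of opposite strands by over 25% of exon bases was found for 5 members, the others being Psmb7, Psmc5 and Psmd13.

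**Figure D3:**
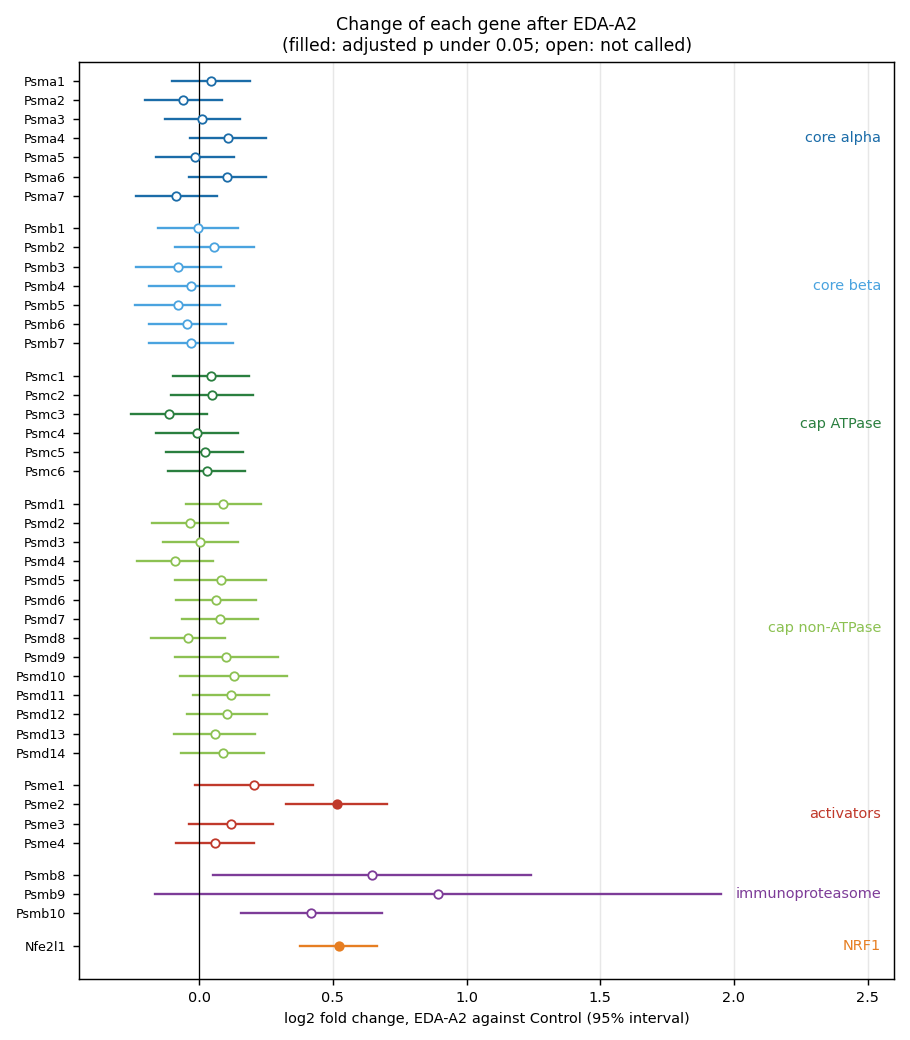
Log2 fold change of EDA-A2 against Control for the 38 genes by class, for the 3 immunoproteasome subunits and for Nfe2l1, with 95% intervals from edgeR. Filled points passed an adjusted p of 0.05 and open points did not. Every interval of the core and cap genes includes 0 and ends at or below 0.33, whereas that of Psme2 runs from 0.33 to 0.70 and that of Nfe2l1 from 0.38 to 0.67.

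The immunoproteasome subunits, which replace Psmb6, Psmb7 and Psmb5 in cells exposed to interferon, were scarce in these myotubes. Psmb8 had 30 and 32 counts in Control and 53 and 48 in EDA-A2. Psmb9 had 13 and 5 in Control and 16 and 19 in EDA-A2. Psmb10 had 232 and 230 in Control and 319 and 323 in EDA-A2. In all 3 the EDA-A2 libraries were above the Controls without overlap, as were 22.8% of all genes tested. Called were 0 of 3, against 4.57% of all genes. The log2 fold changes were 0.65 (adjusted p = 0.264), 0.89 (0.437) and 0.42 (0.0722) by edgeR. Psmb10 passed in 3 of the 10 settings that kept all libraries, with adjusted p from 0.0127 to 0.246 over the 10. Per kilobase of coding sequence Psmb10 stood at 11.4 CPM against 194 for its constitutive counterpart Psmb7, Psmb8 at 1.66 against 95.01 for Psmb5, and Psmb9 at 0.679 against 182 for Psmb6. Beside these values most of the macrophage list was Cd68, with 54 and 63 counts in Control and 81 and 69 in EDA-A2, and the other 3 of its 4 genes were near 0. Ptprc had 0 and 2 counts in Control and 1 and 1 in EDA-A2, Adgre1 had 0 and 1, then 0 and 0, and Csf1r had 3 and 1, then 8 and 3.

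**Figure D4:**
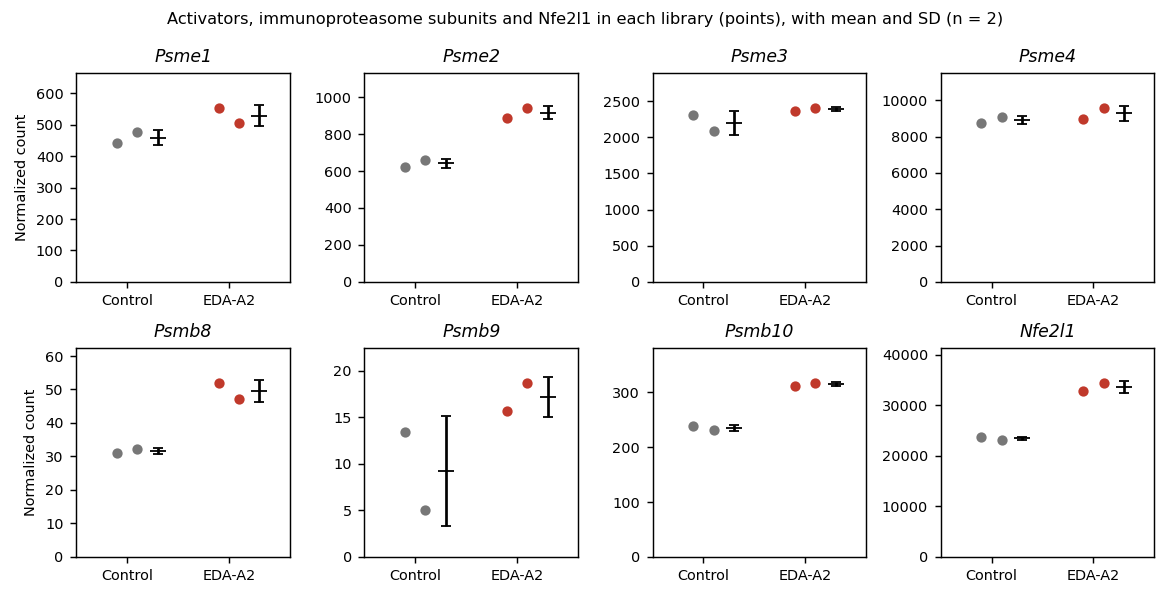
Normalized counts of the 4 activators, the 3 immunoproteasome subunits and Nfe2l1 in each library (points), with the mean and SD of each condition (n = 2). Each vertical axis starts at 0. In all panels but that of Psme4 both EDA-A2 libraries lie above both Controls, as for 22.8% of all genes tested. The call was made for Psme2 and Nfe2l1.

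Nfe2l1, which encodes NRF1, had 22997 and 23008 counts in Control and 33528 and 35050 in EDA-A2. Both treated libraries were far above the Controls, by 0.52 on the log2 scale (95% interval 0.38 to 0.67, adjusted p = 0.000302 by edgeR). The 34 core and cap genes tested had a median log2 fold change of 0.02 in the same libraries. They were not chosen as targets of NRF1, and whether NRF1 acted on them was not tested. NRF1 protein, which is controlled after translation, was not measured. Of the 10 genes listed for the NRF1 pathway, 1 was called higher, Nfe2l1 itself, and 0 lower. Over all genes tested 2.45% were called higher and 2.13% lower. Mafk, a partner of NRF1 on DNA, had 1159 and 1167 counts in Control and 978 and 1050 in EDA-A2, a log2 fold change of -0.25 (adjusted p = 0.105 by edgeR, and 0.0411 with the replicate block and the offsets for length and GC content together). Ddi2, Ngly1 and Vcp, which process NRF1, had log2 fold changes of -0.07, -0.07 and 0.04.

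The lists of assembly factors, of other subunits and the inhibitor, and of ubiquitin receptors and processing genes held 0 called genes each. Over all genes tested 4.57% were called, so 0 in lists of 6, 3 and 14 tested genes is near that share. Of 6 assembly factors tested, 3 were above and 3 below 0, with Psmg1 at -0.14 and Psmg4 at 0.08 on the log2 scale. The lid subunit Sem1 and the inhibitor Psmf1 had log2 fold changes of -0.08 and -0.13. Both were lower without overlap between conditions, as were 22.2% of all genes tested. Of 14 ubiquitin receptors and processing genes 6 were above 0, with Zfand5 at -0.15 and Ubqln4 at 0.13. With the replicate block and the offsets for length and GC content together, Zfand5 was called lower (log2 fold change -0.21, adjusted p = 0.0430 by edgeR).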

How the data were processed

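The authors trimmed the reads of stranded mRNA libraries with Trim Galore 0.6.5, mapped them to GRCm39 with STAR 2.7.3a and counted them with HTSeq 0.11.1, per the labels' processing notes. The deposited values are raw counts per Ensembl gene. The annotation release and strand option are not given in the sources used here. HTSeq's summary lines (outside genes 6.68% to 7.40%, ambiguous 0.946% to 0.986%, not unique 4.56% to 4.76%) were left out. Depth was 29444155 to 29746863 counts, and floors (3 counts) cover counting error only. The intervals come from edgeR's fit and cover counting error and the spread between these libraries only.

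Symbols came from GENCODE vM39, which held 52610 of the 53647 genes. Counts were fitted in R 4.3.3 with edgeR 4.0.16 (TMM, filterByExpr with a minimum of 10 counts and a total of 15, quasi-likelihood test, condition only), with Benjamini-Hochberg adjustment over 15173 genes and a threshold of 0.05. Replicates were distinct libraries: chi-square per gene was 4.73 to 9.94 within and 16.0 to 22.1 between conditions. On simulated data for this comparison, with 200 of 14970 genes changed, edgeR called 179 of them and 12 unchanged genes. Every change put in was larger than that of Psme2 or of any core or cap gene, and the least expressed genes were spared. These calls therefore do not measure detection at the sizes reported here. DESeq2 1.42.0, other scalings and filters, offsets for length and GC content (loess span 0.3), a replicate block and leaving out each library were alternatives. Levels per length divide CPM by coding or canonical transcript length. Named were called members, the 3 smallest p and the extremes of level in each class, catalytic, activator and filtered members, and the called genes and 2 smallest p of each list reported (a list fixed beside these is not reported here); members outside this rule, markers, neighbours and promoter examples were named after their values were seen. Members and lists were chosen with earlier results of these data known.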

Additional observations from a re-analysis of the deposited data

How the results depend on the processing

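Psme2 was the called member in all alternatives but 3. With no filter on low counts (25545 genes tested) 0 members were called higher, and 64 genes rose and 22 fell over the whole table. With each library left out in turn, the lone sample of a condition was assumed to vary like the others, and members called higher ranged from 0 to 1, genes higher over the table from 0 to 238 and genes lower from 0 to 170. Both values of 0 came without a Control replicate, and at an unadjusted p under 0.05 edgeR then had 2179 and 2448 genes. The cause was not tested. Nfe2l1 kept its direction, at 0.49 to 0.58, and lost its call without Control replicate 1 (adjusted p = 0.256) or Control replicate 2 (0.183). Members called lower numbered 0 in every alternative.

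Medians of the log2 fold change moved by more than the spread between replicates, in at least 1 class or over all members, in 6 of 14 alternatives. Library totals gave 0.10 for all members, 0.067 for core alpha, 0.080 for cap ATPase, 0.13 for cap non-ATPase and 0.22 for activators, and 485 genes higher and 194 lower over the table. The core beta median became 0.025. Offsets for length and GC content gave 0.0065, -0.031 for core alpha and 0.040 for cap non-ATPase genes. With each library left out, the median ranged from 0.013 to 0.052 for all members, -0.0016 to 0.026 for core alpha, -0.12 to 0.060 for core beta, -0.022 to 0.039 for cap ATPase, 0.043 to 0.091 for cap non-ATPase genes and 0.14 to 0.19 for activators. At a threshold of 0.01, 204 genes were higher and 135 lower, and at 0.1, 504 were lower.

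The replicate numbers are not said to mark a shared batch, and the differences between replicates correlated at r = 0.0566 between conditions over 15173 genes. With a replicate block 537 genes were higher and 529 lower, and 1 member was called. With the block and the offsets for length and GC content 582 were higher and 721 lower, and the medians were 0.0065 for all members, -0.031 for core alpha and 0.041 for cap non-ATPase genes. With the block Psmb10 (adjusted p = 0.0469) also passed. With the block and these offsets Mafk (adjusted p = 0.0411), Zfand5 (0.0430) and Psmb10 (0.0127) passed. Psmb9 had 5 to 19 counts a library, so its value is imprecise.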
